A study of Mus musculus with 6 samples.

Results

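Serpin genes of mouse chromosome 12 were described in the liver of WT mice and of mice with a RING domain mutation of TRIM24 (TRIM24 C52/55A, here KI). They were *Serpina1a*, *Serpina1b*, *Serpina1c*, *Serpina1d*, *Serpina1e*, *Serpina3k*, *Serpina3m*, *Serpina3n*, *Serpina6* and *Serpina12*. They were taken by gene name from the deposited tables, and all 10 were listed in all 6 libraries, among 21528 genes listed in any library. The genes were chosen with their difference between the genotypes already known. Their values are therefore given as a description, without a test of their own. Where the fit over all genes called a member, the call is part of that description.

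The livers came from 3 WT and 3 KI mice of the C57BL/6 strain (per the study's methods, a C57Bl/6J background), 5 months old, with 1 RNA-Seq library per mouse. All mice of both genotypes had been fed a high fat diet (HFD, 60% fat) for 3 months, so no liver on another diet enters the comparison. TRIM24 is found mainly in the nucleus, and the study reports that insulin moves part of it into the cytosol. It has a RING domain of the kind found in ubiquitin ligases. The knockin replaces Cys52 and Cys55 of that domain in the endogenous gene with alanine. The allele is present in the whole body of homozygous mice, and the controls were WT littermates, so an effect of liver cells and an effect of other tissues cannot be told apart. Values are FPKM, the fragments of a gene scaled to its length and to the size of the library. *Trim24* was at 5.54, 4.85 and 5.96 FPKM in WT replicates 1 to 3, against 6.15, 4.31 and 8.46 FPKM in KI replicates 1 to 3. The knockin changes codons inside the gene, so these values do not check the genotype labels.

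Serpins are a family of folded proteins, most of which trap proteases. A protease cuts the exposed reactive centre loop of the inhibitor as bait, and the inhibitor then changes shape and holds the enzyme in a complex that is cleared from the blood. Hepatocytes secrete large amounts of them into plasma. *Serpina1* encodes alpha-1-antitrypsin, best known for restraining neutrophil elastase, and exists in the C57BL/6 mouse as a set of close copies where humans have a single gene. The *Serpina3* copies descend from the gene for alpha-1-antichymotrypsin, *Serpina6* encodes corticosteroid-binding globulin, which carries glucocorticoids in blood and inhibits no protease, and *Serpina12* encodes vaspin, an inhibitor also made by adipose tissue.

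The members lie within 768 kb of chromosome 12, from 103646630 to 104414329 on GRCm38. All coordinates are counted from 1. *Serpina6* was listed at chr12:103646630-103657212, *Serpina1a* at chr12:103853589-103863562, *Serpina1c* at chr12:103894926-103904887 and *Serpina1e* at chr12:103946931-103958975. *Serpina12* was listed at chr12:104028769-104044443 and *Serpina3n* at chr12:104406729-104414329. For these 6 genes the listed interval was that of the annotated gene (GENCODE M21). The other 4 genes shared their intervals. *Serpina1b* and *Serpina1d* were both listed at chr12:103728156-103830373, an interval of 102 kb that is the annotated *Serpina1b* gene and holds the whole *Serpina1d* gene, annotated from 103763594 to 103773592, inside it. *Serpina3k* and *Serpina3m* were both listed at chr12:104338486-104394257, an interval of 55.8 kb that is the annotated *Serpina3m* gene, within which *Serpina3k* takes the first 7.66 kb. Each pair overlaps on the same strand, and each gene of a pair has its own FPKM. How reads in the shared stretch were divided between the genes is not given in the sources used here. The 7 genes from *Serpina6* to *Serpina12* are on the minus strand and the 3 *Serpina3* genes on the plus strand.

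The *Serpina1* copies are close in sequence. Their coding sequences, of 1242 bases in 4 copies and 1311 bases in the annotated *Serpina1a* transcript used here, were identical at 96.3% to 98.5% of aligned bases in every pair. *Serpina1a* and *Serpina1c* were the closest pair, and *Serpina1e* was identical to *Serpina1a* at 96.5% and to *Serpina1b* at 96.3%. Between *Serpina3k* and *Serpina3m* the identity was 92.5%, and *Serpina3n* was identical to them at 83.7% and 85.2%. Pairs from different groups were identical at 62.3% to 66.7%. The copies share long stretches whole. Of all windows of 100 bases along the transcript, 58.5% in *Serpina1c*, 47.4% in *Serpina1a*, 26.3% in *Serpina1d*, 19.2% in *Serpina1b* and 14.8% in *Serpina1e* were found whole in another member. The share was 4.85% in *Serpina3k* and 6.09% in *Serpina3m*, and 0% in *Serpina3n*, *Serpina6* and *Serpina12*. With windows of 50 bases the share was 73.3% in *Serpina1c*, 60.0% in *Serpina1a*, 48.0% in *Serpina1d*, 35.6% in *Serpina1e* and 34.2% in *Serpina1b*. It was 17.1% in *Serpina3m*, 12.8% in *Serpina3k*, 0.893% in *Serpina3n* and 0% in *Serpina6* and *Serpina12*. Reads from these stretches cannot be told apart by sequence, and how they were counted was not tested.

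**Figure D1:**
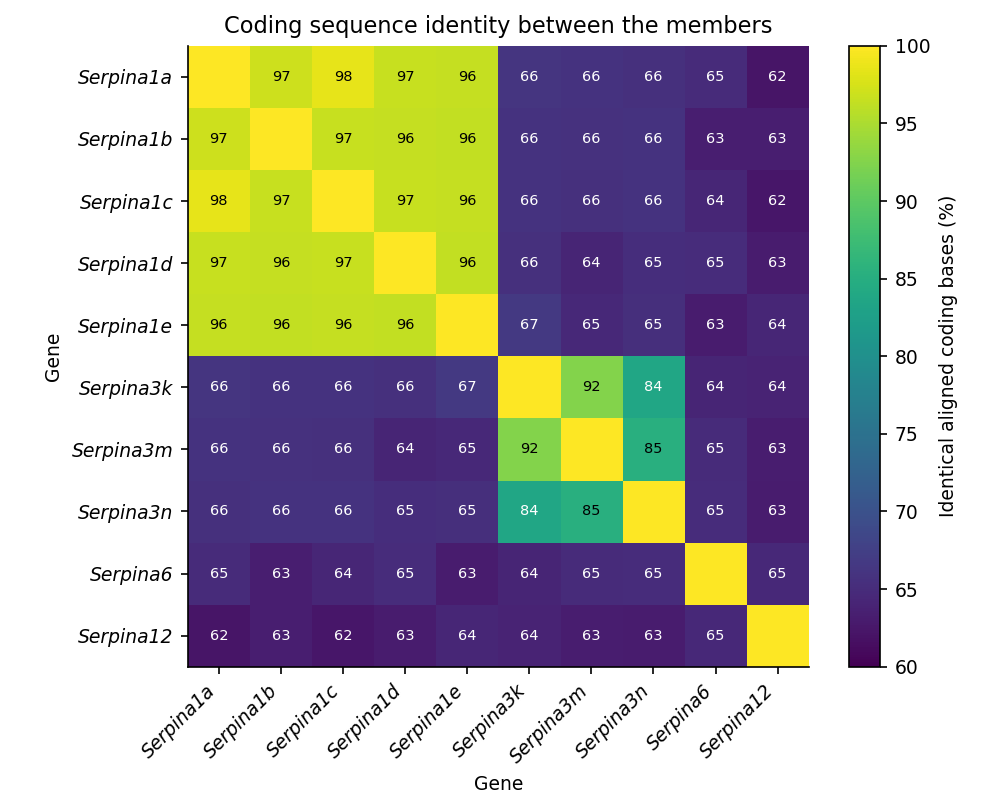
Percentage of identical aligned coding bases for each pair of the 10 genes, with both axes listing the genes and the colour running from 60 to 100%. The 5 *Serpina1* copies form a block at 96.3% or above, *Serpina3k* and *Serpina3m* pair at 92.5%, and pairs from different groups sit between 62.3% and 66.7%.

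The copies differ at a larger share of bases in the reactive centre loop than over the whole coding sequence. The loop is the stretch that decides which protease is trapped, and other stretches were not compared with it. The coding stretch of 75 bases (25 codons) that starts at the hinge of the loop is shown 5′ to 3′ on the coding strand for the 5 *Serpina1* copies, read from GRCm38 by the GENCODE M21 annotation. Capitals mark bases that differ from *Serpina1a*. It lies in the last exon at chr12:103853762-103853836 in *Serpina1a*, chr12:103728329-103728403 in *Serpina1b*, chr12:103895099-103895173 in *Serpina1c*, chr12:103763767-103763841 in *Serpina1d* and chr12:103947105-103947179 in *Serpina1e*, on the minus strand.
Serpina1a: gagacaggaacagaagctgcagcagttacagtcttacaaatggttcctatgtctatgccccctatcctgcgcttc
Serpina1b: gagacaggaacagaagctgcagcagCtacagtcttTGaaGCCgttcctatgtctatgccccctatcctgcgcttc
Serpina1c: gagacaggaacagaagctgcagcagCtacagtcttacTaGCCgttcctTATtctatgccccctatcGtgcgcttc
Serpina1d: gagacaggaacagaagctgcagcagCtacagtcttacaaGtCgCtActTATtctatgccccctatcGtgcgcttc
Serpina1e: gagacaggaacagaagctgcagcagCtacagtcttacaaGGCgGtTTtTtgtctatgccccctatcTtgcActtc

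The hinge at the start of the loop was the same in all 5 copies, and the differences gathered in its middle. Against *Serpina1a*, 6 bases differed in *Serpina1b*, 9 in *Serpina1c*, 9 in *Serpina1d* and 10 in *Serpina1e*. These changed the translation of 4, 5, 6 and 6 codons. *Serpina1a* and *Serpina1e*, identical at 96.5% of coding bases, thus differed at 13.3% of the bases of the loop. The 17th codon is that of the P1 residue, after which the protease cuts. It was atg in *Serpina1a* and *Serpina1b*, tat in *Serpina1c* and *Serpina1d*, and ttg in *Serpina1e* alone. The following codon was tct in all 5.

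The loops of the *Serpina3* copies, on the plus strand, stand farther apart. Capitals mark bases that differ from *Serpina3k*. The stretch is at chr12:104345263-104345337 in *Serpina3k*, chr12:104393763-104393837 in *Serpina3m* and chr12:104413442-104413516 in *Serpina3n*, again in the last exon.
Serpina3k: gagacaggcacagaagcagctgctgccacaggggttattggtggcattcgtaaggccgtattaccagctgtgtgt
Serpina3m: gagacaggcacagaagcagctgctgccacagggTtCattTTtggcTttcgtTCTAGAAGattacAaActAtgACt
Serpina3n: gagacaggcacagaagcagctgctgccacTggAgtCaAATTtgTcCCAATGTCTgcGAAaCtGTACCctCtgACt

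*Serpina3m* differed from *Serpina3k* at 18 of these 75 bases and *Serpina3n* at 29, which changed the translation of 10 and 11 codons. The hinge was again shared.

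FPKM summed to more in every KI library than in any WT library. The sums ran from 644619 to 648221 in WT and from 673244 to 676791 in KI libraries, and 17709 to 17984 genes were listed in each. FPKM keep no read count, and only the relative depth could be had, from the steps between low values. It was 0.954 to 1.03 times that of WT replicate 1. All 6 livers had reads of the Y-linked genes, with *Ddx3y* at 5.62 to 7.05 FPKM, and *Xist* was at most 0.00403 FPKM. Of 6 hepatocyte marker genes, 5 were listed and the other, *Alb*, was not analysed here. The 5 summed to 15745 to 16322 FPKM in WT and 14178 to 16309 FPKM in KI livers. Across the 12225 genes that averaged 0.5 FPKM or more, limma on log2(FPKM + 1) with Benjamini-Hochberg adjustment called 944 genes at an adjusted p under 0.05, 200 higher and 744 lower in the KI liver. The split of calls moved to 250 higher and 406 lower with median-of-ratios scaling, to 255 and 378 with quantile normalization and to 197 and 1358 with TPM. The median log2 fold change of all genes tested was -0.08, and it was 0.01 with median-of-ratios scaling and with quantile normalization.

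In the WT liver the 10 genes ranged from some of the most abundant RNAs of the tissue to a low one. In the order of mean FPKM they were *Serpina1b* (4092), *Serpina1c* (3601), *Serpina1a* (2834), *Serpina1d* (2127), *Serpina3k* (1942), *Serpina1e* (1004), *Serpina3m* (195), *Serpina3n* (187), *Serpina6* (162) and *Serpina12* (11.6). Neighbours whose ranges overlapped were *Serpina1d* with *Serpina3k*, *Serpina3m* with *Serpina3n*, and *Serpina3n* with *Serpina6*. In the KI liver *Serpina1e* moved from the 6th to the first place, at 8542 FPKM. It was followed by *Serpina1c* (4349), *Serpina1b* (3955), *Serpina1a* (3514), *Serpina3k* (3264), *Serpina1d* (2277), *Serpina3n* (161), *Serpina3m* (105), *Serpina6* (57.3) and *Serpina12* (12.3). There only *Serpina1a* and *Serpina3k* overlapped as neighbours. Among all genes tested *Serpina1e* ranked 86 by mean FPKM in WT and 11 in KI livers.

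**Figure D2:**
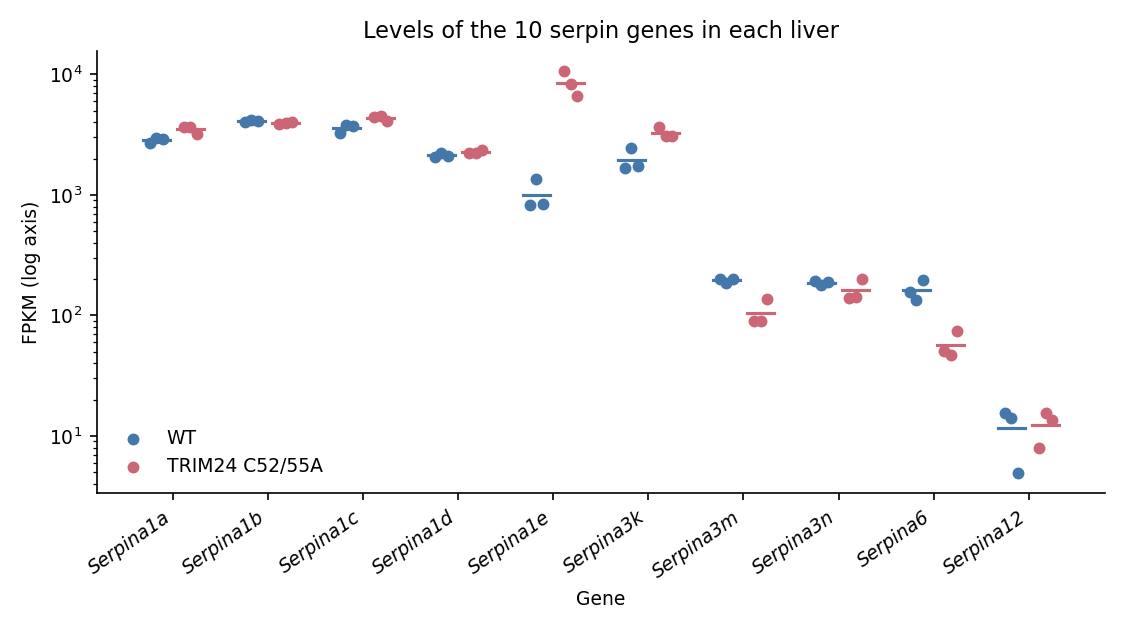
FPKM of each of the 10 genes (log axis) in the 3 WT and 3 KI (TRIM24 C52/55A) livers, with 1 point per library and a line at the group mean. *Serpina1e* is set apart from the other copies, with 820 to 1352 FPKM in WT and 6615 to 10679 FPKM in KI livers, and *Serpina6* and *Serpina3m* lie lower in the KI livers.

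Among the 10 members the largest difference was that of *Serpina1e* (ENSMUSG00000072849). It was at 820, 1352 and 841 FPKM in WT replicates 1 to 3, against 10679, 8333 and 6615 FPKM in KI replicates 1 to 3. Every KI liver was above every WT liver. The means were 1004 ± 301 and 8542 ± 2040 FPKM (SD, n = 3), a ratio of 8.50, and the log2 fold change was 3.10 (standard error 0.23). Of all genes tested it ranked 7th among those higher in the KI liver. Levels also varied within each genotype, with a coefficient of variation of 30.0% in WT and 23.9% in KI livers. WT replicate 2 was the highest of its group.

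The other *Serpina1* copies differed by smaller ratios than *Serpina1e*. *Serpina1a* had 2683, 2939 and 2880 FPKM in WT and 3637, 3684 and 3220 FPKM in KI replicates 1 to 3. *Serpina1c* had 3281, 3805 and 3717 FPKM in WT and 4401, 4516 and 4131 FPKM in KI livers. For both, the groups did not overlap and the ratio was 1.24 and 1.21, with log2 fold changes of 0.31 (standard error 0.09) and 0.27 (standard error 0.09). *Serpina1a* and *Serpina1c* are also the copies that share most sequence with other members, and how far reads of another copy entered their values was not tested.

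Among the *Serpina1* copies, *Serpina1b* and *Serpina1d*, listed on one interval, differed least in the values as deposited. *Serpina1d* had 2054, 2205 and 2120 FPKM in WT and 2216, 2245 and 2370 FPKM in KI livers. The groups were just apart, and the log2 fold change was 0.10 (standard error 0.08). *Serpina1b* had 3991, 4154 and 4131 FPKM in WT and 3891, 3975 and 3998 FPKM in KI livers. Its groups overlapped, with a log2 fold change of -0.05 (standard error 0.08). Since *Serpina1b* and *Serpina1d* were listed on one interval, their sum is also given, and how it depends on the assignment of shared reads was not tested. It was 6219 ± 159 FPKM in WT and 6232 ± 131 FPKM in KI livers (SD, n = 3), a difference of 13.1 FPKM with overlapping groups. These 4 genes are among the most abundant of the liver, and the direction of the small differences of *Serpina1a*, *Serpina1b* and *Serpina1d* depended on the scaling. With quantile normalization the log2 fold change was -0.10 for *Serpina1a*, 0.01 for *Serpina1c*, -0.11 for *Serpina1d* and -0.41 for *Serpina1b*, and with median-of-ratios scaling that of *Serpina1b* was 0.05. The fit called *Serpina1b* lower with quantile normalization, and it called *Serpina1a* higher with median-of-ratios scaling (0.41). *Serpina1c* and *Serpina1d* were called under none of the 14 alternatives.

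The FPKM of the alpha-1-antitrypsin copies were also summed as deposited. Whether reads shared by several copies were divided, counted at each or dropped is not known, and its effect on the sum was not tested. *Serpina1a* to *Serpina1e* summed to 12829, 14455 and 13689 FPKM in WT and to 24824, 22753 and 20335 FPKM in KI replicates 1 to 3. The groups were well apart. The means were 13658 ± 814 and 22637 ± 2247 FPKM (SD, n = 3), a ratio of 1.66. *Serpina1a* to *Serpina1d* without *Serpina1e* summed to 12654 ± 572 and 14095 ± 353 FPKM, a ratio of 1.11. Of the difference of 8979 FPKM in the whole sum, *Serpina1e* made up 7538 FPKM, or 83.9%. The *Serpina1* copies took 2.11 ± 0.122% of all FPKM in WT and 3.35 ± 0.342% in KI livers. FPKM summed over all genes differed between the genotypes by 29224, and *Serpina1e* alone was 25.8% of that.

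The make-up of the pool changed with it. *Serpina1e* was 6.39%, 9.36% and 6.14% of the *Serpina1* sum in WT and 43.0%, 36.6% and 32.5% in KI livers. Each of the other copies took a smaller share in every KI liver than in any WT liver. The mean share in WT and in KI livers was 30.0% and 17.6% for *Serpina1b*, 26.4% and 19.3% for *Serpina1c*, 20.8% and 15.6% for *Serpina1a*, and 15.6% and 10.1% for *Serpina1d*. Shares of one pool are tied to each other, and the summed FPKM of these 4 copies, as deposited, was not lower in the KI livers. In terms of the loops shown earlier, the copy whose P1 codon is ttg was 7.30 ± 1.79% of the pool in WT and 37.4 ± 5.29% in KI livers (SD, n = 3).

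**Figure D3:**
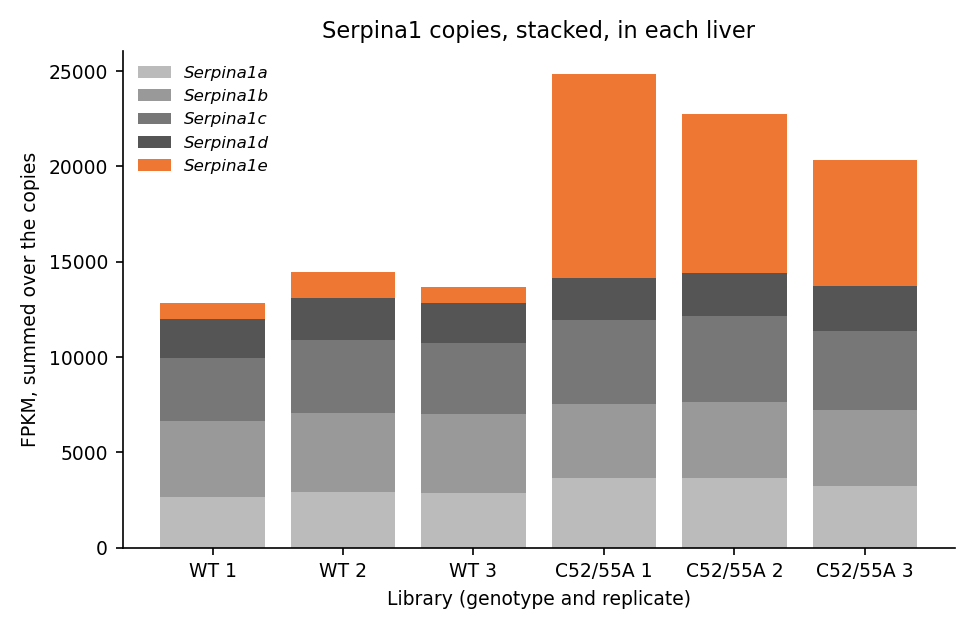
FPKM of the 5 *Serpina1* copies stacked for each of the 6 livers (KI drawn as C52/55A), with *Serpina1e* in orange on top and the other copies in grey. The grey part reaches 12009 to 13103 FPKM in WT and 13720 to 14420 FPKM in KI livers, while the orange part is 820 to 1352 FPKM tall in WT and 6615 to 10679 FPKM tall in KI livers.

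The *Serpina3* genes did not move in one direction. *Serpina3k* (ENSMUSG00000058207), the most abundant of them in this liver, had 1668, 2434 and 1725 FPKM in WT and 3620, 3067 and 3104 FPKM in KI replicates 1 to 3. Every KI liver was above every WT liver. The means were 1942 ± 427 and 3264 ± 309 FPKM (SD, n = 3), a ratio of 1.68, with a log2 fold change of 0.77 (standard error 0.15). As for *Serpina1e*, WT replicate 2 was the highest WT liver. With quantile normalization the log2 fold change was 0.37 and was not called.

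*Serpina3m* (ENSMUSG00000079012), its closest relative here, differed the opposite way. It had 199, 185 and 201 FPKM in WT and 89.2, 89.8 and 137 FPKM in KI livers. The groups did not overlap, and KI replicate 3 was nearest to WT. The mean was 195 ± 8.80 FPKM in WT and 105 ± 27.5 FPKM in KI livers (SD, n = 3), 1.85 times higher in WT, with a log2 fold change of -0.91 (standard error 0.16). Since *Serpina3k* and *Serpina3m* were listed on one interval, their sum is also given. It was 2138 ± 418 and 3369 ± 297 FPKM, a ratio of 1.58. *Serpina3m* was 10.7%, 7.06% and 10.4% of that sum in WT and 2.41%, 2.84% and 4.23% in KI livers.

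*Serpina3n*, an acute-phase inhibitor that blocks granzyme B and neutrophil proteases, had 194, 178 and 190 FPKM in WT and 140, 143 and 201 FPKM in KI livers. The groups overlapped through KI replicate 3, the highest of the 6. The log2 fold change was -0.24 (standard error 0.14), and it was -0.41, and called in the fit over all genes, without that replicate. *Serpina3n* was listed on an interval of its own and shared no 100-base window with another member.

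*Serpina6* (ENSMUSG00000060807) had 157, 133 and 197 FPKM in WT and 51.1, 46.8 and 74.0 FPKM in KI replicates 1 to 3. Every KI liver was below every WT liver. The means were 162 ± 32.2 and 57.3 ± 14.6 FPKM (SD, n = 3), 2.83 times higher in WT, with a log2 fold change of -1.49 (standard error 0.19). It ranked 50th among the genes lower in the KI liver and shared no window with another member.

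*Serpina12* was the least abundant member and the most variable. It had 15.6, 14.2 and 4.93 FPKM in WT and 7.89, 15.4 and 13.6 FPKM in KI livers. The groups overlapped, with a log2 fold change of 0.17 (standard error 0.39) that was -0.30 without WT replicate 3. Vaspin is also an adipose product, and adipocyte markers were looked at beside it. The 7 markers summed to 36.1 FPKM in KI replicate 2 and to between 9.47 and 14.8 FPKM in the other 5 libraries, and 6 of the 7 were highest in KI replicate 2. In that library *Adipoq* was at 4.55, *Plin1* at 3.32 and *Lep* at 3.98 FPKM, while in the other 5 libraries these 3 markers were at 0 or at most 0.127 FPKM. Other markers of the list did not follow. *Cfd* was at 2.54 FPKM in KI replicate 2 and at 4.17, 8.62 and 3.10 FPKM in WT livers. *Adrb3* was at 7.81, 12.4 and 10.6 FPKM in KI replicates 1 to 3, against 2.04, 2.17 and 1.99 FPKM in WT livers. *Serpina12* was at 15.4 FPKM in KI replicate 2 and at 15.6 and 14.2 FPKM in WT livers where *Adipoq*, *Plin1* and *Lep* were at 0. A part of adipose tissue in the level of *Serpina12* was not tested.

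Of the 10 members, 4 were among the genes called in the fit over all genes, *Serpina1e* and *Serpina3k* higher and *Serpina3m* and *Serpina6* lower, where 7.72% of all genes tested were called, 1.64% higher and 6.09% lower. For 5 members every KI liver was above every WT liver, for 2 every one was below, and for 3 the groups overlapped. Over all genes tested the groups did not overlap for 28.9%, above for 6.31% and below for 22.5%. The members were chosen on this contrast, and nothing is read from these counts or from the calls of members that follow. *Serpina1e* and *Serpina6* were called when any single library was left out. *Serpina3k* and *Serpina3m* were no longer called without WT replicate 1 (log2 fold changes 0.67 and -0.90), without WT replicate 3 (0.69 and -0.89) or without KI replicate 1 (0.69 and -0.81). The median log2 fold change of the members was 0.13, beside -0.08 for all genes tested.

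The promoters of the *Serpina1* copies were compared because the copies differ so unequally in level. A stretch of 250 bases before the RefSeq start (GRCm38.p6) was found for 7 of the 10 members, and none for *Serpina3k*, *Serpina3m* and *Serpina6*. Among the 5 *Serpina1* copies these stretches were identical at 92.1% to 98.0% of aligned bases. That of *Serpina1e* starts farther downstream, and over its 188 to 199 aligned bases it was identical at 95.5% to 98.0% to the others, most closely to *Serpina1b*. The pair is shown 5′ to 3′ on the minus strand, *Serpina1e* at chr12:103956898-103957147 and *Serpina1b* at chr12:103738190-103738439. Both lie inside the listed gene intervals, because the RefSeq starts used are downstream of the annotated gene starts (GENCODE M21). Those are at 103958975 for *Serpina1e* and 103830373 for *Serpina1b*. Capitals mark the letters TGTTCT, part of the site of the glucocorticoid receptor.
Serpina1e: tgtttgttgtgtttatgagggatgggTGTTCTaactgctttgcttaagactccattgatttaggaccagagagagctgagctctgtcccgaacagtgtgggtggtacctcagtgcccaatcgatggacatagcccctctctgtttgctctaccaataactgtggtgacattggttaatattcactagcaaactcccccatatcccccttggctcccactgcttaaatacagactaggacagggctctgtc
Serpina1b: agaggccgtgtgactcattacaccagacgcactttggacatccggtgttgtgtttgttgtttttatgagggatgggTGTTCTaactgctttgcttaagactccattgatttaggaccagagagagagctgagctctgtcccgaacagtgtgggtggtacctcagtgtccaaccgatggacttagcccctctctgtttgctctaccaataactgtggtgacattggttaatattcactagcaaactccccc

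TGTTCT was found in 5 of 5 *Serpina1* stretches and in 16.1% of all 32851 RefSeq promoter stretches of this length, on either strand, and also, as its reverse complement, in *Serpina3n*. The STAT letters TTCNNNGAA (7.02% of all stretches) and the C/EBP letters TTGCNNNAA (8.29%) were in none of the 7 stretches found, on either strand. *Serpina12* held none of the 3 motifs. The copies are not independent in sequence, and TGTTCT was as present in *Serpina1b* as in *Serpina1e*. A match is a description of letters and not a binding site.

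Along the cluster, members that differed and members that did not lay side by side. *Serpina1e* lies between *Serpina1c*, with a log2 fold change of 0.27, and *Serpina11*, another serpin, with 34.2 ± 2.96 FPKM in WT and 49.8 ± 5.82 FPKM in KI livers. The log2 fold change of *Serpina11* was 0.53 (adjusted p = 0.0245, standard error 0.11, limma with Benjamini-Hochberg adjustment). It was no longer called without WT replicate 1 (0.51), WT replicate 3 (0.47) or KI replicate 1 (0.50). Beyond *Serpina12* lies *Serpina4-ps1*, an unprocessed pseudogene on the plus strand at chr12:104080649-104086724. It had 5.52, 9.17 and 3.11 FPKM in WT and 71.5, 36.9 and 142 FPKM in KI livers. Its log2 fold change was 3.50 (adjusted p = 0.00623, standard error 0.47, limma with Benjamini-Hochberg adjustment), the only value above that of *Serpina1e* among the serpins tested. *Serpina3g*, an inhibitor of cysteine proteases, went from 8.05 ± 0.539 to 4.58 ± 0.750 FPKM (log2 fold change -0.70, adjusted p = 0.0136, limma), a call lost without WT replicate 1 (-0.66) or WT replicate 3 (-0.73). The neighbouring *Serpina3f* had a log2 fold change of -0.52 (adjusted p = 0.0515, limma). *Serpina10*, at the other end of the cluster beside *Serpina6*, was at 79.7 ± 0.969 and 72.2 ± 14.3 FPKM (log2 fold change -0.16, adjusted p = 0.539, limma), and its groups overlapped.

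**Figure D4:**
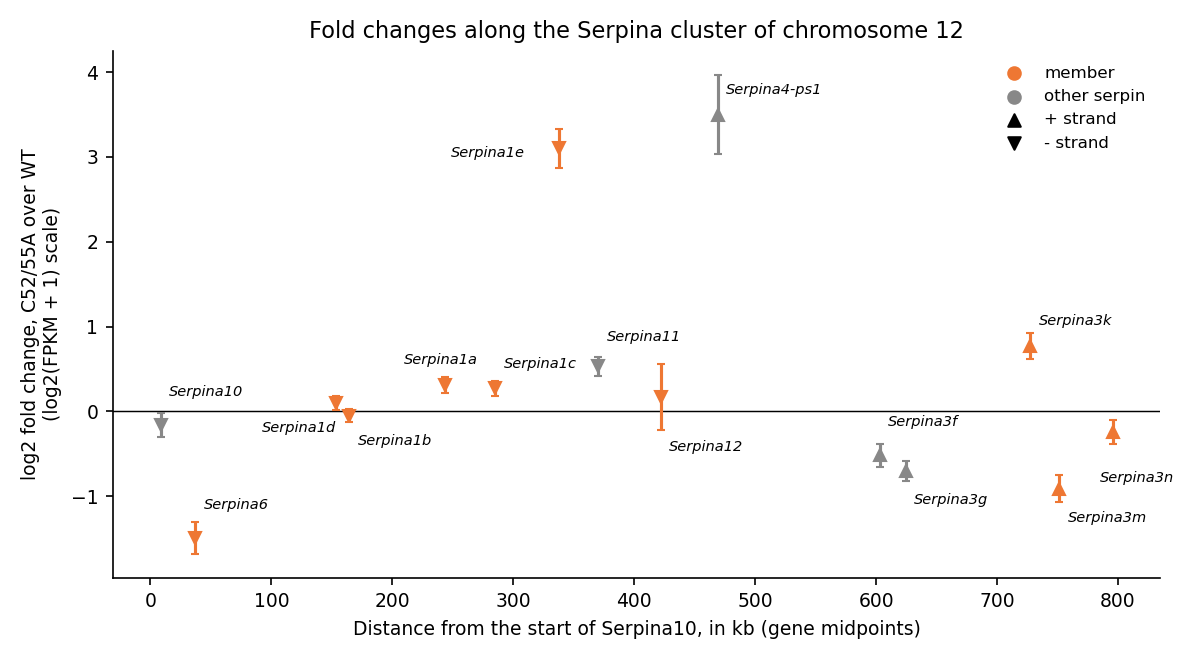
Log2 fold change (KI, drawn as C52/55A, over WT, on the log2(FPKM + 1) scale) of each tested serpin of chromosome 12 against the distance in kb of its annotated midpoint from the start of *Serpina10*, with bars of 1 standard error. *Serpina1e* at 3.10 and *Serpina4-ps1* at 3.50 stand above their neighbours, and *Serpina6* is lowest at -1.49.

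Beyond the members, 32 other serpin genes, *Agt* included, were listed in any library and 20 were tested. Of these, 4 were higher and 5 lower in the KI liver (limma, adjusted p under 0.05 over all genes), with a median log2 fold change of -0.17. The share called over all genes tested was 7.72%, with 1.64% higher and 6.09% lower. Among the 7 of clade A, 2 were higher and 2 lower. Besides those on chromosome 12, *Serpina7*, which encodes thyroxine-binding globulin, a carrier like *Serpina6*, went from 72.7 ± 15.6 to 26.6 ± 0.370 FPKM. Its log2 fold change was -1.40 (adjusted p = 0.00178, standard error 0.14, limma), beside -1.49 for *Serpina6*. *Agt*, which encodes angiotensinogen, was at 313 ± 36.0 and 263 ± 7.70 FPKM (log2 fold change -0.24, adjusted p = 0.157, limma). *Serpina7* and *Serpina4-ps1* were called under each of the 14 alternatives tried.

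Among the 5 serpins of clade B, which stay inside cells, 2 were lower and 0 higher. They were *Serpinb1a*, an inhibitor of neutrophil proteases, with a log2 fold change of -0.89 (adjusted p = 0.0288, standard error 0.19, limma), and *Serpinb8*, with one of -0.75 (adjusted p = 0.0281, standard error 0.16, limma). Of the 8 serpins of other clades, 2 were higher and 1 lower. *Serpine2*, protease nexin-1, had a log2 fold change of 0.96 (adjusted p = 0.0220, limma), *Serping1*, the C1 inhibitor, one of 0.39 (adjusted p = 0.0177, limma), and *Serpinf1*, pigment epithelium-derived factor, one of -0.35 (adjusted p = 0.0280, limma). Antithrombin (*Serpinc1*), a secreted serpin about as abundant as *Serpina1d*, was at 2028 ± 54.5 and 2003 ± 134 FPKM, and the groups overlapped (log2 fold change -0.02). Of the 9 calls, 3 were left without WT replicate 1, without WT replicate 3 or without KI replicate 1, and 5 without WT replicate 2.

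**Figure D5:**
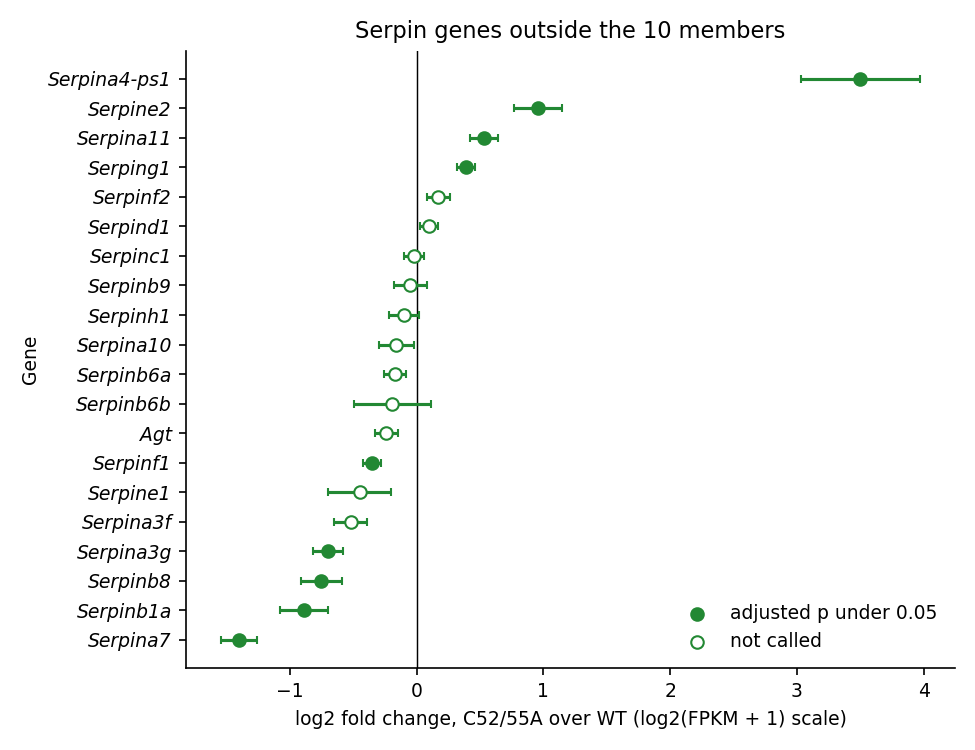
Log2 fold change (KI, drawn as C52/55A, over WT, on the log2(FPKM + 1) scale) of the 20 tested serpin genes outside the 10, with bars of 1 standard error and filled points where the limma adjusted p was under 0.05. The 9 filled points run from -1.40 for *Serpina7* to 3.50 for *Serpina4-ps1*, and *Serpinc1* lies at -0.02.

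Genes that act with the members were read from lists. Beside each count stands the share over all genes tested, 7.72% called, 1.64% higher and 6.09% lower. Of 15 regulators known to act on liver serpin promoters, 0 were higher and 2 lower, with a median log2 fold change of 0.01 (limma, adjusted p under 0.05 over all genes). They were *Cebpb*, from 22.2 ± 4.76 to 11.3 ± 3.44 FPKM (adjusted p = 0.0428, limma), and *Cebpd*, from 3.05 ± 0.280 to 1.53 ± 0.455 FPKM (adjusted p = 0.0248, limma), both C/EBP factors of the acute phase. The count was 0 without any one of the WT replicates or without KI replicate 1. *Cebpd* was called in 8 of the 14 alternatives and *Cebpb* in 5, and without KI replicate 3 only *Cebpb* was called. Of 11 tested genes of IL-6 family signalling, which drives acute-phase serpins, 1 was higher and 0 lower. It was *Lifr*, the receptor of leukaemia inhibitory factor, with 14.7, 20.0 and 17.6 FPKM in WT and 44.6, 40.7 and 41.0 FPKM in KI livers (log2 fold change 1.23, adjusted p = 0.00110, limma). *Lifr* was called under each of the 14 alternatives.

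Among 17 tested plasma protease inhibitors of other families, 3 were higher and 1 lower, with a median of 0.04. *Mug1* and *Mug2*, of the alpha-2-macroglobulin family, went from 562 ± 22.4 to 882 ± 82.7 FPKM (adjusted p = 0.00672, limma) and from 163 ± 6.84 to 211 ± 2.76 FPKM (adjusted p = 0.0182, limma). *Itih1*, an inter-alpha-trypsin inhibitor heavy chain, had a log2 fold change of 0.39 (adjusted p = 0.0163, limma) and *Cst3*, cystatin C, one of -0.50 (adjusted p = 0.0409, limma). Without any one of the WT replicates or without KI replicate 1, only *Mug1* of this list was called. Of the proteases that serpins restrain, 10 of 18 were tested, with 1 higher, the coagulation factor *F11* (from 16.6 ± 2.83 to 29.8 ± 3.63 FPKM, adjusted p = 0.0130, limma), and 0 lower. *F11* was not called without WT replicate 3 (adjusted p = 0.0556, limma). *Elane*, neutrophil elastase and the best known target of alpha-1-antitrypsin, was at most 0.380 FPKM in any library and was not tested.

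Of 30 genes that fold, export and degrade secreted proteins in the endoplasmic reticulum, the route a misfolded alpha-1-antitrypsin takes, 0 were higher and 1 lower. It was *P4hb*, a protein disulphide isomerase (log2 fold change -0.31, adjusted p = 0.0454, limma), and the median was -0.03. This count turned with the scaling, to 1 higher and 0 lower with median-of-ratios scaling and with quantile normalization, under which *P4hb* was not called, and to 0 higher and 5 lower with TPM. *P4hb* was called in only 4 of the 14 alternatives. Among receptors that clear serpin complexes or glycoproteins, *Asgr1*, a subunit of the asialoglycoprotein receptor, was lower, with -0.31 (adjusted p = 0.0482, limma), a call not made with median-of-ratios scaling, with quantile normalization or with any library left out. Of 12 genes of glucocorticoid action, read beside *Serpina6*, 0 were higher and 1 lower, and the median was -0.44. The called gene was the glucocorticoid-induced *Per1*, from 8.22 ± 2.79 to 3.37 ± 0.631 FPKM (log2 fold change -1.04, adjusted p = 0.0268, limma), which is also a clock gene. *Per1* was not called without WT replicate 2, WT replicate 3, KI replicate 1 or KI replicate 3 (adjusted p = 0.0631 to 0.103, limma). The count of this list was 0 without WT replicate 2, WT replicate 3 or KI replicate 1, 2 lower with TPM or with the replicate block, and 4 lower without KI replicate 2. The receptor itself, *Nr3c1*, was at 8.21 ± 0.436 and 8.32 ± 1.35 FPKM (adjusted p = 0.979, limma). Together these lists held 12 calls among 98 tested genes, 5 higher and 7 lower, where 7.72% of all genes tested were called. The split was 9 and 2 with median-of-ratios scaling, 7 and 2 with quantile normalization and 5 and 14 with TPM. Of the 12 calls, 3 were left without WT replicate 2, without WT replicate 3 or without KI replicate 1, and 4 without WT replicate 1.

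Among 4380 other genes of at least 10 FPKM on average, those whose pattern over the 6 livers was closest to that of *Serpina1e* were *Mup21*, *Rpp40* and *Mup1*. Likeness was the root mean square difference of log2(FPKM + 1) after centring each gene, and it was 0.33, 0.34 and 0.48. *Mup21* had 219, 246 and 175 FPKM in WT and 1420, 1240 and 1363 FPKM in KI livers. *Mup1* went from 981 ± 499 to 5381 ± 725 FPKM, and WT replicate 2 was the highest WT liver of both, as for *Serpina1e*. Both are major urinary proteins, a family of near-identical copies whose reads can be split in the same uncertain way. *Rpp40*, a subunit of ribonuclease P, went from 3.04 ± 0.804 to 35.1 ± 3.44 FPKM. Closest to *Serpina6* were *Lgals1* (0.07), *Slc16a7* (0.14) and *Rdh9* (0.16). *Lgals1*, which encodes galectin-1, had 45.8, 40.8 and 55.9 FPKM in WT and 15.4, 12.1 and 20.1 FPKM in KI livers, the same order of the 6 livers as *Serpina6*. These genes were chosen for their pattern, and a likeness over 6 livers of the same contrast is a description only.

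Markers of other cells in the liver were read as sums beside these results. Kupffer cell markers summed to 137 to 182 FPKM in WT and 121 to 161 FPKM in KI livers, neutrophil markers to 4.52 to 10.8 and 1.98 to 7.27 FPKM, and endothelial markers to 74.0 to 80.7 and 67.5 to 74.2 FPKM. Stellate cell markers summed to 103 to 112 FPKM in WT livers and were highest, at 128 FPKM, in KI replicate 2. These ranges overlapped between the genotypes. Cholangiocyte markers, at 2.84 to 5.26 and 2.88 to 5.54 FPKM, and lymphocyte markers, at 1.49 to 2.04 and 0.875 to 1.85 FPKM, also overlapped. Of 5 pancreatic acinar markers 2 were listed, nearly all of it *Cela1*, at 3.50 to 8.26 and 10.8 to 16.1 FPKM summed, and *Cela1* was called higher. Of the other markers tested, limma called 0 of 6 Kupffer cell, 0 of 2 neutrophil, 1 of 5 endothelial, 0 of 5 stellate, 0 of 3 cholangiocyte, 1 of 6 adipocyte and 2 of 5 hepatocyte genes. The part of these cells in the members' values was not tested. In these bulk livers, fewer cells of a type and less RNA per cell cannot be told apart.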

How the data were processed

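Liver RNA-Seq of 3 WT and 3 KI (TRIM24 C52/55A) mice was analysed. The authors deposited 1 table of FPKM per library, which lists genes with a value above 0. A gene listed in some libraries only was taken as 0 in the others, and a gene listed in none, such as *Alb*, was not analysed here and not taken as 0. Per the labels, the submitters' processing notes name bcl2fastq, Salmon 0.14.0, DESeq2 1.30.0 and GRCm38 without their roles, and how multi-mapped reads were assigned is not given in the sources used here. Read counts could not be used, so depth is known only relative to another library. Groups and replicate numbers came from the labels. The labels do not say that libraries of a group differ in batch, and p-values measure the spread between these mice.

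log2(FPKM + 1) of the 12225 genes that averaged 0.5 FPKM or more was tested with limma 3.58.1 in R 4.3.3 (eBayes with a mean-variance trend, Benjamini-Hochberg adjustment, threshold 0.05), after a check on simulated data. Fold changes on this scale understate those of low genes. With 3 against 3 an exact permutation test cannot go below 0.1 and was not used for single genes. Python 3.11.15, pandas 2.3.3, numpy 2.4.6, Biopython 1.88 and matplotlib 3.10.9 were used for the rest. Coordinates are those of the files, whose starts are counted from 0 and were raised by 1. Coding stretches came from GENCODE M21 and promoters from RefSeq (GRCm38.p6).

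The members and the gene lists were chosen with earlier results of these data known. Named were all 10 members, the other serpins with an adjusted p under 0.05 and *Agt*, at most 5 called genes per list without overlap, and the 3 genes most like the members that differed most in each direction. *Trim24*, *Ddx3y*, *Xist*, *Serpinc1*, *Serpina3f*, *Serpina10*, *Nr3c1*, *Elane*, *Cela1* and the named adipocyte genes were named after their values were seen. Some genes of the lists are not reported here.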

Additional observations from a re-analysis of the deposited data

How the results depend on the processing

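In 14 alternatives (pseudocount 0.1, other filters, scalings and variance model, a replicate block and each library left out), 129 of 140 log2 fold changes of the members moved by less than the spread between replicates and 11 by more, and 0 called ones changed sign. *Serpina1e* kept its call in 14 (2.92 to 3.33) and *Serpina6* in 14 (-1.69 to -1.35), *Serpina3m* in 10 (-1.11 to -0.76) and *Serpina3k* in 9 (0.37 to 0.94). The members were chosen on this contrast, so a kept call is a description and no support. The ratio of the *Serpina1* sum, 1.66, was 1.36 with quantile normalization and 1.58 to 1.74 with a library left out, and the *Serpina1e* share stayed at 34.6% to 39.8%.

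The counts of calls depended more on the settings. The number of genes called, 944 as reported, was 347 with no filter on low values, 1555 with TPM and 294 to 1280 with a library left out. The number of other serpins called, 9 as reported, was 3 with no filter and 3 to 9 with a library left out. The number called in the related lists, 12 as reported, was 4 with no filter, 19 with TPM, 7 with no mean-variance trend and 3 to 12 with a library left out. The count of 4 members called, examined this way only after the data had been seen, was 2 with no filter and 2 to 5 with a library left out. The count of 4 with quantile normalization held *Serpina1b* in place of *Serpina3k*. With no filter more genes are tested; the cause of the other shifts was not tested. Of 280 values of the 20 other named genes called as reported, 97 lost the call and 0 changed sign. *Asgr1*, *Cebpb*, *P4hb*, *Cst3* and *Serpinf1* lost it in 9 to 11 alternatives.

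Same-numbered mice are different animals, and their deviations from the group means correlated at -0.12, -0.10 and 0.00, with 0 of 6 libraries closest to its own number, so the numbers do not pair the samples. With the replicate block 578 genes, 8 other serpins, 7 genes of the lists and 4 members were called.

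Depth is unknown beyond its relative value, no interval for counting error can be given, and the split of FPKM among near-identical copies could not be checked without reads.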
